A study of Mus musculus with 8 samples.

Results

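Cells handle superoxide and hydrogen peroxide with a short chain of enzymes, and 10 genes of that chain were followed on the arrays. They were Sod1, Sod2 and Sod3 (the cytosolic, mitochondrial and secreted superoxide dismutases), Cat (catalase), Gpx1 and Gpx3 (the cellular and the secreted plasma glutathione peroxidase), Prdx1 (peroxiredoxin 1), Txnrd1 (cytosolic thioredoxin reductase), Hmox1 (the inducible heme oxygenase) and Nfe2l2, which encodes NRF2. The genes were chosen by name and matched by their mouse Entrez gene IDs, and all 10 were found among the 24232 genes of the table. The samples were primary follicular cells, mostly granulosa cells, grown for 9 days from preantral follicles of Swiss females aged 8 weeks, with 5 mice pooled for each replicate. They received 12 pmol of a non-targeting or a Foxl2-directed siRNA pool together with a marker plasmid, in medium with charcoal-treated serum and no androstenedione. Either vehicle or 100 nM estradiol (E2) was then given for 10 h. The 2 siRNAs and 2 treatments made 4 groups of 2 one-colour arrays, named here by siRNA and treatment as control/vehicle, control/E2, FOXL2/vehicle and FOXL2/E2.

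The dismutases turn superoxide into hydrogen peroxide, which catalase, the glutathione peroxidases and the peroxiredoxins then remove. Thioredoxin reductase returns oxidised thioredoxin, the electron donor of most peroxiredoxins, to its reduced form, and heme oxygenase degrades heme to biliverdin, iron and carbon monoxide. NRF2 is a transcription factor that KEAP1 and CUL3 send to the proteasome in unstressed cells. Once it escapes them, it binds antioxidant response elements together with small MAF proteins and activates genes of glutathione and thioredoxin metabolism, NADPH production and heme breakdown. BACH1 competes for the same elements, and Hmox1 is one of the genes it represses. Granulosa cells, which surround the oocyte and make estrogens and progesterone, are exposed to oxidants from steroid synthesis.

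The core of the antioxidant response element, TGACNNNGC on either strand, was searched in RefSeq promoters of build GRCm38.p6, each running from 250 bases before to 50 bases after a transcription start. It was present in 12.4% of all 32851 such promoters and, counting a gene by any of its promoters, in 14% of 27025 genes. The promoters of 8 of the 10 genes were searched, all but those of Sod3 and Hmox1, and the core was found in those of Nfe2l2, Txnrd1, Prdx1 and Sod1 and in none for Sod2, Cat, Gpx1 and Gpx3. The 4 matches are shown because Nfe2l2, Txnrd1 and Prdx1 were called higher with FOXL2 siRNA in at least 1 of the fits described later (as was Cat, which lacks the core), while Sod1, which holds the same core, was the member with the smallest difference. Each window is given from 5′ to 3′ on the strand of its gene, with the matched letters in capitals. It lies at chr2:75704833-75704913 on the minus strand for Nfe2l2 and, on the plus strand, at chr10:82859078-82859158 for 1 of the 3 promoters of Txnrd1, at chr4:116685430-116685510 for Prdx1 and at chr16:90220670-90220750 for Sod1.
Nfe2l2: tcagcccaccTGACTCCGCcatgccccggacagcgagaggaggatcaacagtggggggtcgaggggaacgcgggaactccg
Txnrd1: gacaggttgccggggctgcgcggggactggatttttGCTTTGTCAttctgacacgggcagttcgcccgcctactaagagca
Prdx1: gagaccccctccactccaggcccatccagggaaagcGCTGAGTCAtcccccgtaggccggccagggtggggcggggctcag
Sod1: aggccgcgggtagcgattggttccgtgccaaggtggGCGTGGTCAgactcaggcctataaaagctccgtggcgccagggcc
The match ended 231 bases before the start of Nfe2l2, 83 before that of Txnrd1, 124 before that of Prdx1 and 47 before that of Sod1. In Prdx1 the same letters overlap TGAGTCA, the AP-1 site, which was present in 5.2% of all promoters. A match describes the letters of the window and shows no binding.

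Of 8 granulosa markers, Foxl2, Inha, Inhbb, Nr5a2 and Fst were well above background on all 8 arrays, whereas Fshr and Amh were on none. The 2 Foxl2 probes disagreed: the brighter was higher on arrays labelled FOXL2 siRNA by 0.18 on the log2 scale (adjusted p = 0.33 over probes), while the dimmer was lower, with a change of -0.97 (adjusted p = 0.0164). The gene value, dominated by the brighter probe, changed by 0.18 ± 0.10 (SE, adjusted p = 0.334), so the arrays are called by their labels below, as FOXL2-labelled and control-labelled arrays. Fst, an established FOXL2 target that encodes follistatin, was lower on FOXL2-labelled arrays by a change of -2.02 (adjusted p = 0.000226), and Inhbb, an inhibin and activin subunit, was higher by 0.80 (adjusted p = 0.0185). These were the 2 of 6 kept granulosa markers called from group means, where 12.6% of all genes were called. With the block 2 were higher and 2 lower, where 27.7% of all genes were called. The further 2 were Nr5a2, higher by 0.35 (adjusted p = 0.117, and 0.00254 with the block), and Cyp19a1, the aromatase gene. Cyp19a1 was lower, with a change of -0.75 (adjusted p = 0.0819, and 0.0403 with the block), and was well above background on 6 arrays. Replicates with the same number deviated together, so each comparison was also fitted with the replicate number as a block, and that value is given where the call differs.

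All 10 genes were well above background on 8 of 8 arrays and passed the filter on low signals. Levels are given as log2 of the scaled signal, are comparable between arrays for 1 gene and are not set against each other between genes, because every probe has its own brightness. Sod1 varied least, by 0.25 between its lowest and its highest array. Hmox1 varied most, by 1.51, followed by Sod3 at 1.44 and Txnrd1 at 1.08. Much of that spread lay between replicate numbers. Averaged over the 4 groups, replicate 2 exceeded replicate 1 by 0.77 for Hmox1, 0.61 for Sod3, 0.57 for Txnrd1 and 0.28 for Cat, in 4 of 4 groups each. For Gpx3 replicate 2 was lower in 4 of 4 groups, with a mean difference of -0.29. For Nfe2l2 the difference was 0.09.

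**Figure D1:**
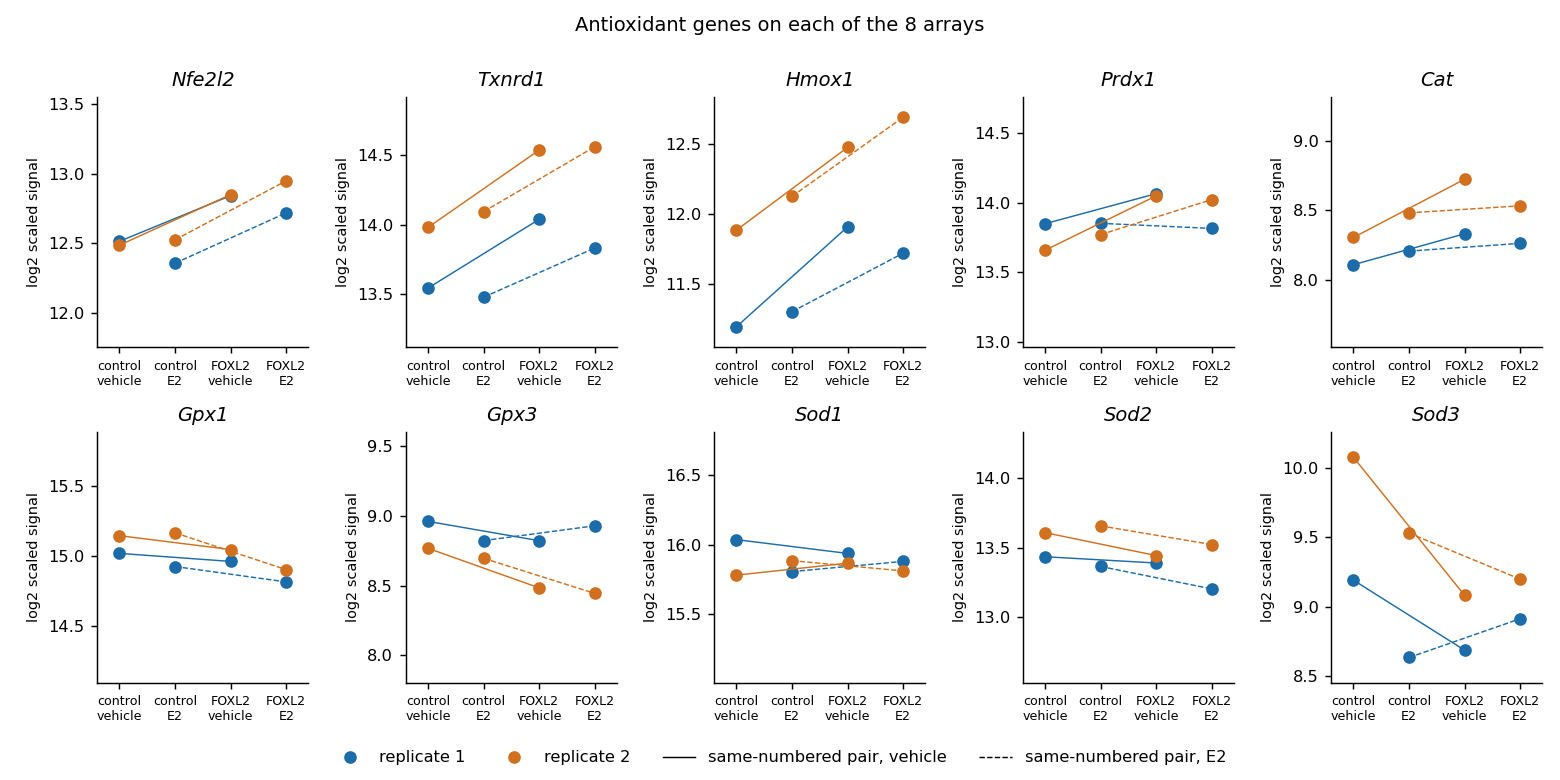
Log2 scaled signal of each of the 10 genes (vertical axis, the same span in every panel) on the 8 arrays, ordered by siRNA and treatment (horizontal axis), with replicate 1 in blue, replicate 2 in orange, and lines joining same-numbered arrays of the same treatment. Lines rise in 4 of 4 pairs for Nfe2l2, Txnrd1, Hmox1 and Cat, while for Txnrd1 and Hmox1 the replicates run in parallel at different heights.

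The first question was how these genes differed between cells given FOXL2 siRNA and cells given control siRNA. In the fit of group means Nfe2l2 was the 1 member that rose, by 0.37 ± 0.07 on the log2 scale over both treatments (SE, 1.29-fold, adjusted p = 0.0148), against 12.6% of the 15645 genes tested that were called in either direction. Txnrd1, Hmox1 and Prdx1 also rose, and Sod3 fell, once the replicate number was a block, making 5 of 10 against 27.7% of all genes. No member fell in the fit of group means. The dismutases Sod1 and Sod2 and the glutathione peroxidases Gpx1 and Gpx3 passed neither test. In bulk RNA, more cells of a kind and more RNA per cell cannot be told apart.

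Nfe2l2 read 12.51 and 12.49 in control/vehicle and 12.36 and 12.53 in control/E2, for replicates 1 and 2. It read 12.84 and 12.85 in FOXL2/vehicle and 12.72 and 12.95 in FOXL2/E2. All 4 FOXL2-labelled arrays thus lay above all 4 control-labelled arrays, and Nfe2l2 was the 1 member for which this held, as it did for 10.1% of all genes. The reverse order held for 0 members and for 10.7% of all genes. The change was 0.35 with vehicle and 0.39 with E2, and neither passed the test alone (adjusted p = 0.101 and 0.0845), but both did with the replicate number as a block (adjusted p = 0.0155 and 0.00896). Over both treatments the call was lost without replicate 1 of control/E2 (0.33, adjusted p = 0.0566), without replicate 2 of FOXL2/vehicle (0.37, adjusted p = 0.0535) and without replicate 2 of FOXL2/E2 (0.31, adjusted p = 0.0514). With the block it held in 8 of 8 such fits, with adjusted p at most 0.00726.

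Txnrd1 read 13.54 and 13.98 in control/vehicle, 13.48 and 14.09 in control/E2, 14.04 and 14.54 in FOXL2/vehicle, and 13.83 and 14.56 in FOXL2/E2. The groups overlapped, because the replicate 1 arrays were all lower than the replicate 2 arrays of the same group, but within each same-numbered pair the FOXL2-labelled array was higher, by 0.35 to 0.56. The mean change was 0.47 ± 0.21 (SE, 1.38-fold, adjusted p = 0.217), and with the replicate number as a block its SE fell to 0.06 and adjusted p to 0.000138.

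Hmox1, whose product releases iron and carbon monoxide from heme, read 11.19 and 11.88 in control/vehicle, 11.30 and 12.13 in control/E2, 11.91 and 12.48 in FOXL2/vehicle, and 11.72 and 12.69 in FOXL2/E2. Replicate 1 of FOXL2/E2 was therefore below replicate 2 of both control siRNA groups. Each same-numbered pair was higher on the FOXL2-labelled array, by 0.42 to 0.72. The mean change of 0.58 ± 0.29 (SE, 1.49-fold, adjusted p = 0.255) had an SE of 0.07 and an adjusted p of 6.39e-05 with the block. Both probes of Hmox1 were higher, by 0.60 and 0.33. For Txnrd1 and Hmox1 the blocked call over both treatments held in 8 of 8 fits that left out 1 array.

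Within single treatments the blocked test called Txnrd1 and Hmox1 as well. Txnrd1 differed by 0.52 in vehicle arrays (adjusted p = 0.0012) and by 0.41 in E2 arrays (adjusted p = 0.00746). The values for Hmox1 were 0.66 (adjusted p = 0.000539) and 0.49 (adjusted p = 0.0046). Without the block none of these 4 passed (adjusted p from 0.412 to 0.631). The E2 calls of Txnrd1, Hmox1 and Nfe2l2 were each lost without replicate 1 of control/E2 (adjusted p = 0.0715, 0.0614 and 0.0945) and without replicate 2 of FOXL2/E2 (adjusted p = 0.181, 0.108 and 0.179). With vehicle, the blocked call of Nfe2l2 was lost without replicate 1 of FOXL2/vehicle (adjusted p = 0.13) or replicate 2 of control/vehicle (adjusted p = 0.2).

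Prdx1 reduces peroxide with electrons from thioredoxin. It read 13.85 and 13.66 in control/vehicle, 13.85 and 13.77 in control/E2, 14.07 and 14.05 in FOXL2/vehicle, and 13.82 and 14.02 in FOXL2/E2. It was higher in 3 of 4 pairs, the exception being replicate 1 with E2. Its mean change was 0.21 ± 0.07 (SE, adjusted p = 0.114), with adjusted p = 0.0418 in the blocked fit, and both probes moved alike, by 0.20 and 0.26. That blocked call was lost in 6 of 8 fits without 1 array, with adjusted p from 0.0712 without replicate 1 of control/E2 to 0.291 without replicate 2 of FOXL2/E2, and it held only without replicate 1 of control/vehicle or of FOXL2/E2. With vehicle alone the change was 0.30 (adjusted p = 0.146, and 0.047 with the block), and the blocked call was lost in 5 of 8 such fits, with adjusted p from 0.0589 without replicate 1 of control/E2 to 0.396 without replicate 2 of control/vehicle.

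For Cat and Sod3 the larger FOXL2 siRNA differences were those with vehicle, although neither gene passed the test of a difference between treatments. Cat was higher in 4 of 4 pairs, by 0.22 and 0.42 with vehicle and by 0.06 and 0.05 with E2. Its change with vehicle was 0.32 ± 0.18 (SE, adjusted p = 0.393), which the blocked fit alone called (adjusted p = 0.0492), and that call was lost whichever 1 of the 8 arrays was left out (adjusted p from 0.0678 to 0.316). Over both treatments it was 0.19 and passed neither fit (adjusted p = 0.404, and 0.0779 with the block).

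Sod3, the secreted dismutase, read 9.19 and 10.07 in control/vehicle, 8.64 and 9.53 in control/E2, 8.69 and 9.08 in FOXL2/vehicle, and 8.91 and 9.20 in FOXL2/E2. In both replicates the control siRNA array with vehicle held the highest value. The change with FOXL2 siRNA was -0.75 ± 0.35 with vehicle (SE, adjusted p = 0.303). In E2 arrays it was -0.03 ± 0.35 (adjusted p = 0.982). In the blocked fit the vehicle value passed (adjusted p = 0.00337), as did the mean over both treatments, -0.39 (adjusted p = 0.0148). The vehicle call was lost without replicate 2 of either vehicle group, with adjusted p = 0.063 without the control siRNA array and 0.0751 without the FOXL2 siRNA array. The call over both treatments was lost without any 1 of the 4 replicate 2 arrays, with adjusted p from 0.0694 without that of FOXL2/E2 to 0.101 without that of control/E2.

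Across members, the counts with vehicle were 0 of 10 in the fit of group means, where 6.53% of all genes were called, and 6 of 10 with the block (5 higher and Sod3 lower), where 18.7% were. The blocked count was 2 or 3 without replicate 1 or 2 of FOXL2/vehicle or replicate 2 of control/vehicle. With E2 they were 0 of 10 against 4.38% and, with the block, 3 of 10 against 14.9%. Over both treatments the blocked count of 5 fell to 3 without any 1 of the 4 replicate 2 arrays. In the same comparison, 4 of 10 members were higher in 4 of 4 pairs, compared with 21.2% of all genes, and Sod2 and Gpx1 were lower in 4 of 4 pairs, compared with 21.6%. The median change of the 10 members was 0.09, beside a median of -0.003 over all genes.

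**Figure D2:**
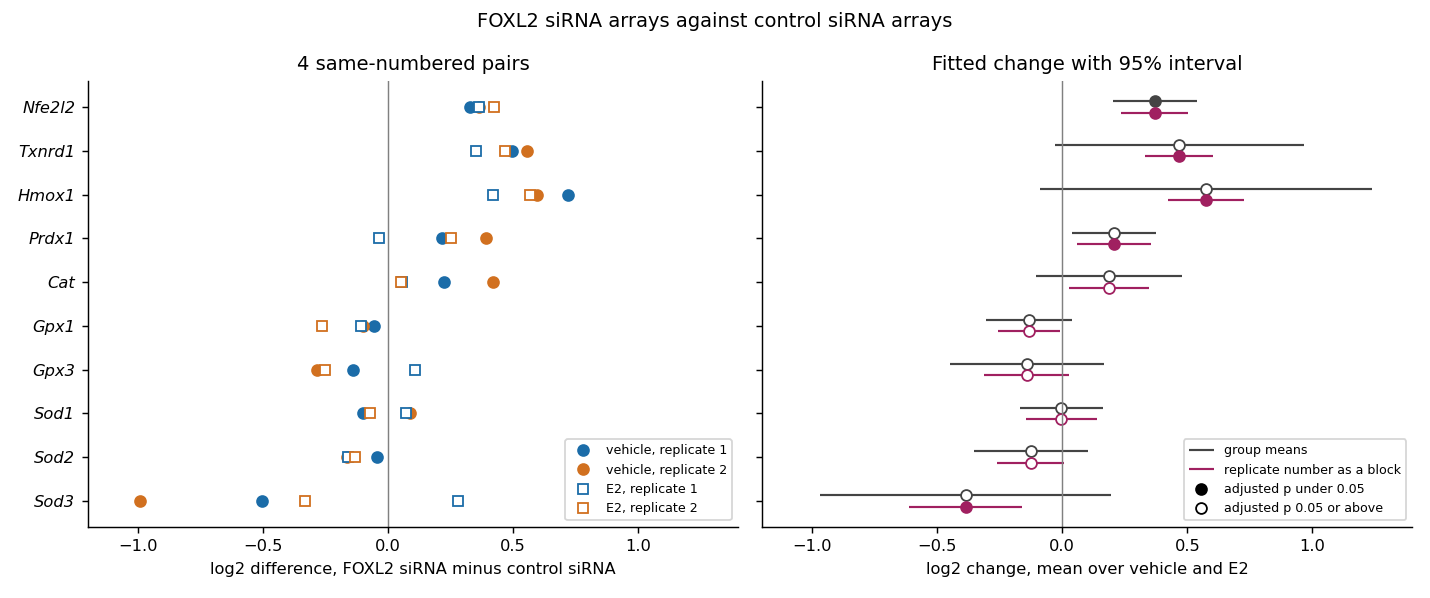
Left, log2 difference between the FOXL2 siRNA and control siRNA arrays of each same-numbered pair for the 10 genes (circles, vehicle; squares, E2). Right, the fitted change over both treatments with its 95% interval from group means (grey) and with the replicate number as a block (purple), filled where adjusted p is under 0.05. The interval of Hmox1 narrows from -0.09 to 1.24 with group means to 0.42 to 0.73 with the block, while that of Nfe2l2 stays clear of 0 in both.

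The remaining 4 members were not called in any FOXL2 siRNA comparison in either fit. Sod1, the cytosolic dismutase, ranged from 15.78 to 16.04 over the 8 arrays, and its change with FOXL2 siRNA over both treatments was -0.003, with a 95% interval from -0.17 to 0.16. Sod2, the mitochondrial enzyme, ranged from 13.20 to 13.66, with a change of -0.13 (interval -0.35 to 0.10). Gpx1 ranged from 14.81 to 15.17, with a change of -0.13 (interval -0.30 to 0.04), and Gpx3 from 8.44 to 8.96, with a change of -0.14 (interval -0.45 to 0.17). Sod2 and Gpx1 were lower in all 4 pairs, by at most 0.17 and 0.26. Over both treatments, adjusted p for these 4 genes lay between 0.306 and 0.983, and with the block between 0.108 and 0.977.

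The second question was whether E2 changed these genes. None of the 10 was called with either siRNA, over both siRNAs or for the difference between the E2 effects, and none was called with the block. With control siRNA 0.0192% of all genes were called (1.16% with the block), and with FOXL2 siRNA 0.0128% (0.614%). Over both siRNAs the shares were 0% and 0.0511%, and for the difference between E2 effects 0.243% and 2.12%. At an unadjusted p under 0.05, 0 members passed any of these 4 comparisons from group means, and with the block Sod3 alone passed, for E2 with control siRNA and for the difference. The members' E2 changes ran from -0.55 to 0.18 with control siRNA and from -0.15 to 0.17 with FOXL2 siRNA. Their unadjusted 95% half-widths from group means reached 0.94, for Hmox1. A smaller fitted change in that gene could not reach even an unadjusted p under 0.05, and the adjusted test needed a larger one. For the difference between E2 effects the half-widths reached 1.33. With the block the interval of Hmox1 with control siRNA was narrower, from -0.04 to 0.39.

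Sod3 had the largest E2 difference. E2 arrays were lower than their vehicle arrays by 0.56 and 0.54 with control siRNA, and higher by 0.23 and 0.12 with FOXL2 siRNA. The fitted changes were -0.55 ± 0.35 (SE, adjusted p = 1, and 0.127 with the block) and 0.17 ± 0.35 (adjusted p = 1, and 0.877 with the block). The difference between them was 0.72 ± 0.50 (SE, adjusted p = 1), with adjusted p = 0.134 with the block, so the opposite directions did not pass a test of their difference. Cat and Prdx1 had the opposite signs to Sod3. For Cat, E2 minus vehicle was 0.10 and 0.18 with control siRNA and -0.07 and -0.19 with FOXL2 siRNA. For Prdx1 it was 0.003 and 0.11 with control siRNA and -0.25 and -0.03 with FOXL2 siRNA. The Prdx1 values of replicate 1 with control siRNA and replicate 2 with FOXL2 siRNA were thus close to 0. The differences between E2 effects were -0.27 for Cat and -0.20 for Prdx1, and neither was called in either fit (adjusted p = 1 for both, and 0.627 and 0.787 with the block).

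**Figure D3:**
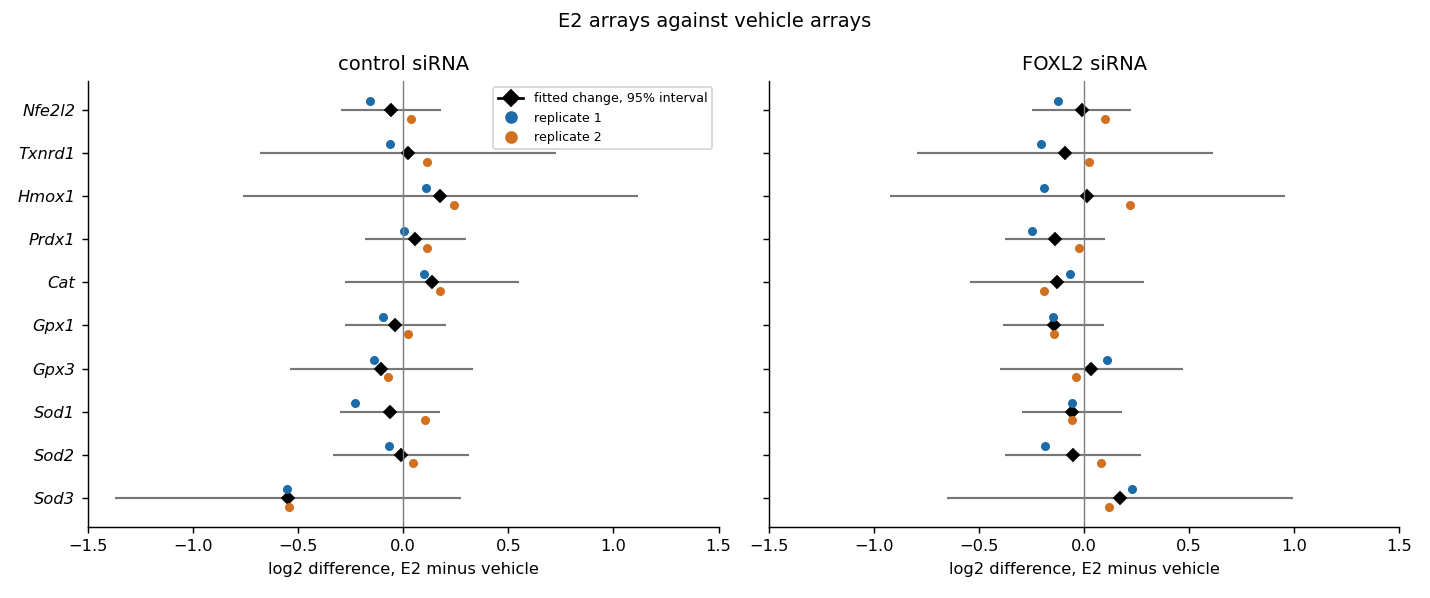
Log2 difference between E2 and vehicle arrays for the 10 genes with control siRNA (left) and FOXL2 siRNA (right), with each replicate as a point and the change from group means as a diamond with its 95% interval. All intervals include 0, and Sod3 with control siRNA lies farthest from it at -0.55.

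Among 19 further genes of the same enzyme families, 17 passed the filter. With FOXL2 siRNA over both treatments 0 rose and 1 fell, Hmox2, the constitutive heme oxygenase, with a change of -0.41 ± 0.07 (SE, adjusted p = 0.00832), opposite in direction to Hmox1. That is 1 of 17, where 12.6% of all genes were called. With the block 2 rose and 4 fell, where 27.7% of all genes were called. The median change was -0.08, beside -0.003 over all genes. With single treatments 0 were called from group means, where 6.53% of all genes were called with vehicle and 4.38% with E2. With the block 1 rose and 2 fell with vehicle (18.7% of all genes called), and 0 rose and 3 fell with E2 (14.9%). Hmox2 was among those that fell in both, at -0.39 in vehicle arrays (adjusted p = 0.0112) and at -0.42 in E2 arrays (adjusted p = 0.00877).

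Of 24 listed regulators and targets of NRF2, all 24 passed the filter, and over both treatments 5 rose, 0 fell and 19 were not called, beside 12.6% of all genes called in either direction. Their median change was 0.13, and that of all genes -0.003. Osgin1, an oxidative stress growth inhibitor, rose by 1.00 ± 0.16 (SE, adjusted p = 0.00565). Me1 (malic enzyme) rose by 0.65 (adjusted p = 0.0275) and G6pdx (glucose-6-phosphate dehydrogenase) by 0.55 (adjusted p = 0.00832), and both make NADPH in the cytosol. Abcc1, an exporter of glutathione conjugates, rose by 0.54 (adjusted p = 0.00894). The fifth was Bach1, named after its value was seen, at 0.32 (adjusted p = 0.0315). The calls of Osgin1, G6pdx and Abcc1 held in 8 of 8 fits without 1 array, that of Me1 in 3 and that of Bach1 in 2, and with the block all 5 held in 8 of 8. Within single treatments, group means called Osgin1 and Abcc1 higher with vehicle (6.53% of all genes called) and G6pdx higher with E2 (4.38%). The blocked fit called 8 higher and 3 lower with vehicle (18.7% of all genes called) and 4 higher and 1 lower with E2 (14.9%). Those called with E2 were Osgin1, Me1, G6pdx and Abcc1, higher by 0.85, 0.53, 0.83 and 0.41, and Srxn1, lower at -0.51. All 5 were also called with vehicle in the blocked fit, in the same directions.

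The list did not move one way. With the replicate block, 7 of the 24 rose and 4 fell over both treatments, where 27.7% of all genes were called. The 4 that fell were named after their values were seen, and none of them was called from group means. Srxn1 (sulfiredoxin, which repairs overoxidised peroxiredoxins and is also 1 of the 19 family genes) was at -0.58 (adjusted p = 0.0608, and 8.11e-05 with the block). Gclc and Gclm, the catalytic and modifier subunits of the enzyme that starts glutathione synthesis, were both at -0.30 (adjusted p = 0.419 and 0.455, and 0.00245 and 0.014 with the block). The small MAF gene Maff was at -0.35 (adjusted p = 0.297, and 0.00893 with the block). Whether these 4 calls held without single arrays was not examined. Keap1 and Cul3 read -0.10 and -0.04 and passed neither test. Nqo1, a commonly used NRF2 target, read 0.26 ± 0.48 over both treatments (SE, adjusted p = 0.789, and 0.0575 with the block), and 0.42 with vehicle (adjusted p = 0.813, and 0.0462 with the block). Of 12 genes for oxidant-producing oxidases 7 passed the filter. Over both treatments 0 of the 7 were called, beside 12.6% of all genes, and 1 with the block, beside 27.7% (Noxo1, at -0.31, adjusted p = 0.0482). With vehicle 0 were called, beside 6.53% of all genes. With the block 1 was, beside 18.7%: Xdh (xanthine dehydrogenase), at 0.33 (adjusted p = 0.0443). With E2 0 were called in either fit, beside 4.38% of all genes and 14.9% with the block.

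**Figure D4:**
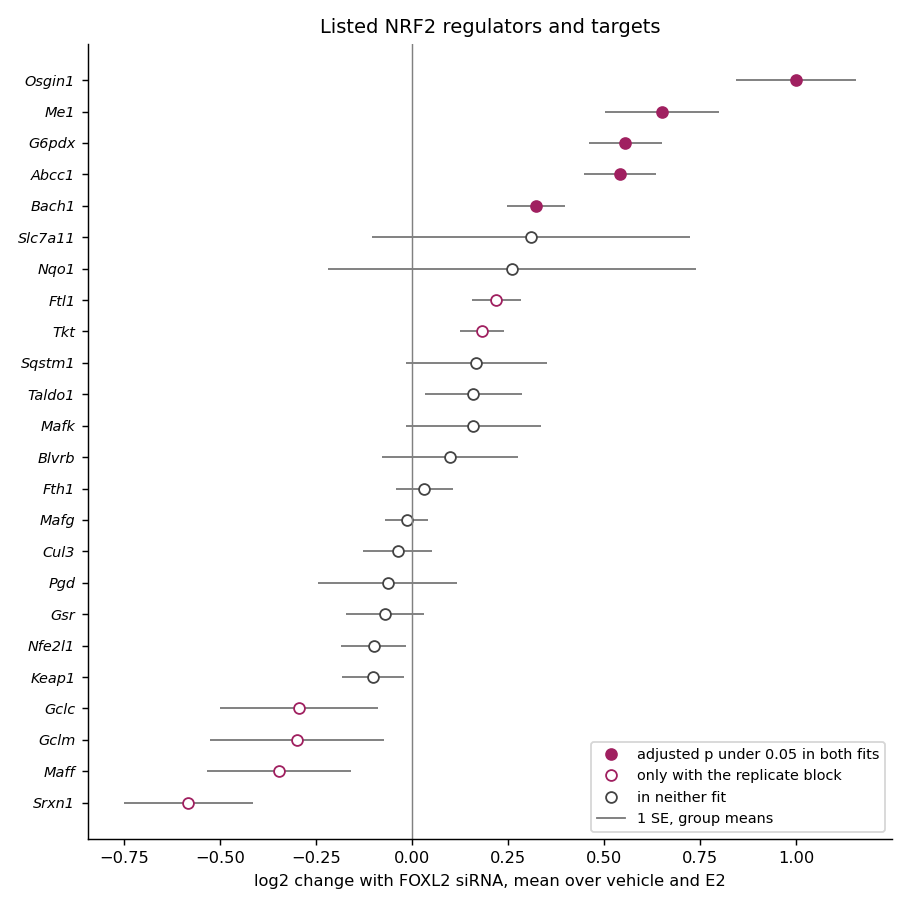
Log2 change with FOXL2 siRNA over both treatments for the 24 listed NRF2 regulators and targets, with 1 SE from group means. Filled points passed in both fits, open purple points only with the replicate block. Osgin1 stands highest at 1.00 and Srxn1 lowest at -0.58.

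Markers of theca and other steroid-producing cells also differed between siRNAs. Over both treatments 1 of 3 kept theca markers was called higher from group means, where 12.6% of all genes were called. With the block 3 of 3 were, where 27.7% of all genes were called. Of 5 theca markers 4 had a row and 3 were above background on all arrays, and the summed signal of the list was 20900 to 24000 on control-labelled and 39000 to 41500 on FOXL2-labelled arrays. Here and below, a sum adds probes of unlike brightness, so the brightest genes of a list weigh most and it does not measure cell numbers. Cyp11a1, the side-chain cleavage enzyme, which granulosa cells also express, rose by 0.89 (adjusted p = 0.000195). Cyp17a1 and Star rose in the blocked fit alone, by 0.62 (adjusted p = 0.11, and 0.000155 with the block) and 0.47 (adjusted p = 0.105, and 0.000263 with the block). Cyp17a1 changed by 0.20 with vehicle (adjusted p = 0.288 with the block) and by 1.04 with E2 (8.89e-05). Star changed by 0.82 with vehicle (adjusted p = 8.41e-05 with the block) and by 0.12 with E2 (0.5). The difference between E2 effects was called with the block alone for both, at 0.84 (adjusted p = 0.0237) and -0.70 (adjusted p = 0.0185). In that comparison the block called 2.12% of all genes. Lhcgr was well above background on 0 arrays. The summed granulosa list was 56600 to 67700 on control-labelled and 73000 to 76600 on FOXL2-labelled arrays. That list includes Foxl2 itself, and its genes moved in both directions, with Fst at -2.02 and Cyp19a1 at -0.75 but Inhbb at 0.80 and Nr5a2 at 0.35. Macrophage markers summed to 552 to 603 and 586 to 716, with Ptprc, Lyz2 and Mrc1 of 7 well above background on 0 arrays. In the blocked fit 1 of the 4 kept, Csf1r, was higher, by 0.34 (adjusted p = 0.0177), beside 27.7% of all genes called. Endothelial markers summed to 1110 to 1830 and 1600 to 1970, with Cdh5, Tek and Vwf of 5 on 0 arrays. Of the 2 kept, 1, Kdr, was higher in the blocked fit, by 0.36 (adjusted p = 0.00742), beside the same 27.7%. Of the erythroid list 0 of 5 markers, and of the oocyte list 1 of 6 (Gdf9), were above background on all arrays, and their sums overlapped between siRNAs. The part of other cell types in the results was not tested.

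Nfe2l2 was also compared with 13342 other kept genes over the 8 arrays. Its levels ran most nearly in parallel with those of Phf8 (Pearson r = 0.996), Sqle (0.992) and Togaram1 (0.99), which is a description of 8 arrays that share siRNA labels and replicate numbers. Sqle, squalene epoxidase of the sterol pathway, was itself higher by 0.71 over both treatments (adjusted p = 0.00209), and Phf8, a histone demethylase, by 0.33 (adjusted p = 0.0379).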

How the data were processed

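Total RNA (50 ng) of 8 samples, 2 per group, was labelled with Cy3 and hybridised to 8 arrays of 1 slide, scanned on 1 day. Per the file headers, the deposited scanner output gives intensity values from Agilent Feature Extraction 11.5.1.1, background-subtracted and not scaled between arrays. The authors' table holds log2 values; after 1 constant per array, 98.7 to 98.9% of its values equalled those computed here within 0.001. Here, each array's processed intensity was divided by its 75th percentile (275.1 to 367.5 units) and multiplied by the mean of these percentiles, probes sharing an Entrez gene ID were averaged, and 15645 of 24232 genes with a median of at least 10 were kept. Per array, 51.4 to 55.7% of probes stood well above background, with 0 saturated. Array number, 2 per group, limits the precision. P-values from group means measure the spread between the pooled replicates of a group. Those with the replicate number as a block measure the spread left once the mean difference between replicate numbers is removed. Coordinates of genes are not printed, since the arrays were designed on mm9.

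Group means were fitted with limma 3.58.1 (R 4.3.3) over all arrays, two-sided, with a spread following intensity and Benjamini-Hochberg adjustment over the kept genes, threshold 0.05. The fit of group means was tested on simulated data, with noise independent between arrays and changes larger than those of the members. The blocked fit was not simulated. Deviations of same-numbered arrays correlated at 0.329 to 0.445 between all 6 pairs of groups, so the numbers from the titles were taken to pair the samples, and blocked values are given where they change a call. The replicate number also coincides with the column of the array on the slide. The comparisons share arrays. The members and gene lists were chosen with earlier results of these data known, and of each pathway list the up to 4 genes with the largest called change were named. Alternatives were the background correction (normexp, run on median signals since the scanner output holds no mean signals), the normalization, the filter, the probe choice, the trend, the arrays fitted and leaving out each array.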

Additional observations from a re-analysis of the deposited data

Results flagged for a closer look

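G6pdx, the glucose-6-phosphate dehydrogenase gene, responded differently to E2 with the 2 siRNAs in the fit with the replicate number as a block. Its E2 effect was higher with FOXL2 siRNA than with control siRNA by 0.54 on the log2 scale (adjusted p = 0.0435), a difference that was not called from group means (adjusted p = 0.825). Of the 10 members and 54 listed pathway genes, tested where kept, G6pdx alone was called for this difference with the block. Those kept were all 10 members, 17 family genes, 24 NRF2 regulators and targets and 7 oxidase genes, with Srxn1 in 2 of the lists. The block called 2.12% of all genes in that comparison, so a single call among the kept genes is near the share of all genes. Whether the call held without single arrays was not examined. With control siRNA it read 14.13 and 14.19 with vehicle and 13.55 and 13.90 with E2, and with FOXL2 siRNA 14.36 and 14.53 with vehicle and 14.44 and 14.66 with E2, for replicates 1 and 2. The E2 change with control siRNA was -0.43, called with the block (adjusted p = 0.0348) and not without it (adjusted p = 0.832). For that change the block called 1.16% of all genes. Groups of 2 arrays are too small to test single arrays as outliers.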

How the results depend on the processing

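With 2 arrays per group, the signal over background was ample for all 10 genes, and the number of arrays set the limit. The replicate number as a block moved the count of members called for FOXL2 siRNA from 0 to 6 with vehicle, from 0 to 3 with E2 and from 1 to 5 over both treatments, and changed no other call of a member. Quantile normalization moved the count with E2 from 0 to 1 (Nfe2l2, adjusted p = 0.0474). Leaving out each array in turn gave 0 to 1 members over both treatments. In the blocked fits, where leaving out an array was chosen after seeing the data, it gave 2 to 5 with vehicle, 0 to 3 with E2 and 3 to 5 over both treatments. The call of Nfe2l2 over both treatments held under the other 8 settings, adjusted p 0.00942 to 0.0445.

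Signs turned only for changes that were called in neither fit. Most were near 0, but they included Sod2 with E2 at -0.15 and the E2 change of Sod3 with FOXL2 siRNA at 0.17. Sod1 read 0.0321 with vehicle, 0.0518 with E2 and 0.0419 over both treatments after normexp, and 0.00568 with E2 after subtracting the median of each array. Over fits without 1 array, the FOXL2 siRNA change of Sod1 ran from -0.134 to 0.121 with vehicle, from -0.0394 to 0.0387 with E2 and from -0.0671 to 0.0603 over both treatments. With E2 it ran from -0.307 to 0.0116 for Sod2, -0.473 to 0.42 for Sod3, -0.0842 to 0.19 for Cat and -0.316 to 0.17 for Gpx3. The E2 change of Sod3 with FOXL2 siRNA ran from -0.0258 to 0.368. The cause of these turns was not tested. Another scaling moved the median of all genes over both treatments to between -0.01 and 0.01.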
